A study of Mus musculus with 16 samples.

Results

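The genes described here are 10 genes of the photoreceptor ribbon synapse, namely Bsn, Pclo, Ctbp2 and Rims2 of the ribbon and active zone, Cacna1f, Cabp4 and Cacna2d4 of its calcium channel, and Egflam, Dag1 and Elfn1 of the bridge to the bipolar cell. They were listed by name, from their known roles in the ribbon, its channel and the trans-synaptic dystroglycan complex, and make up 10 of 54532 genes in a table of uninjected retinas and 10 of 48440 genes in a table of injected retinas. All 10 were found in both tables and all 10 passed the filter on low values in both. The study sequenced poly(A) RNA from 16 whole mouse retinas to ask what age, a point mutation in Elovl2, whose enzyme lengthens polyunsaturated fatty acids, and the fatty acid 24:5 do to the aging retina. Uninjected retinas came from wildtype (WT) mice at 18 months (n = 4), from Elovl2 mutant mice at 12 months (n = 3) and from WT mice at 12 months (n = 3). Injected retinas came from WT mice at 18 months, in which 1 eye received 0.36 nmol of 24:5 into the vitreous (n = 3) and the other eye received vehicle (n = 3), and were taken 5 days later. The strain is given as C57BL6/J. For the mutation, the study's design gives C234W, whereas the genotype labels give C34W. No label says that each library is a separate animal or which injected retinas come from 1 animal, so the p-values below measure the spread between these libraries, which may be partly technical.

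Photoreceptors release glutamate continuously in the dark, from a terminal in which a plate-like ribbon tethers synaptic vesicles above the release site. Bassoon anchors the ribbon, RIBEYE builds it, and L-type calcium channels beside it open with the dark potential and drive release. Pikachurin in the cleft binds dystroglycan on the photoreceptor side, and ELFN1 reaches across to the glutamate receptor of rod bipolar cells, so that the bipolar dendrite lies opposite the ribbon. Loss of several of these genes in mice or humans gives night blindness or cone-rod dysfunction with a weakened electroretinogram b-wave.

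Per length of gene, the calcium sensor gene Cabp4 had the highest level of the 10 genes in the uninjected table, with the length that table gives (1431 bases). It averaged 190.3 ± 16.4 FPKM (fragments per kilobase of gene length, scaled to library size; SD, n = 10). The next levels were 49.6 FPKM for Cacna2d4, 46.0 FPKM for Egflam, 43.7 FPKM for Cacna1f and 37.8 FPKM for Ctbp2, and each of these overlapped its neighbour in the order. Elfn1 at 25.5 FPKM and Rims2 at 24.8 FPKM overlapped each other and lay below every Ctbp2 value. Dag1 at 9.94, Bsn at 9.01 and Pclo at 8.09 FPKM came last and overlapped among themselves.

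The injected table gives no lengths, so counts normalised to library size (CPM) were divided by the lengths of the FPKM table, and the annotation release behind the counts, which may be another one, is not given in the sources used here. On that scale Rims2 was at 66.5, Cacna2d4 at 56.7, Egflam at 49.8, Ctbp2 at 39.8, Cacna1f at 20.7, Elfn1 at 12.2, Pclo at 8.77, Dag1 at 8.39 and Bsn at 5.47 CPM per kilobase. Neighbours overlapped from Rims2 to Ctbp2, and Pclo overlapped Dag1. The place of Cabp4 depended on its length. It was at 132 CPM per kilobase, above all others, with the 1431 bases of the FPKM table. With the 3518 exon bases of GENCODE M21 it was at 53.8 CPM per kilobase, overlapping Rims2, Cacna2d4, Egflam and Ctbp2. That length was chosen after the data were seen. The other 9 genes have the same length in the FPKM table and in GENCODE M21. Rims2 came 7th in the uninjected order and 2nd, or 1st with the longer Cabp4, in the injected one. The tables were made and normalised separately, no test was run between them, and the cause of the different place of Rims2 was not tested.

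**Figure D1:**
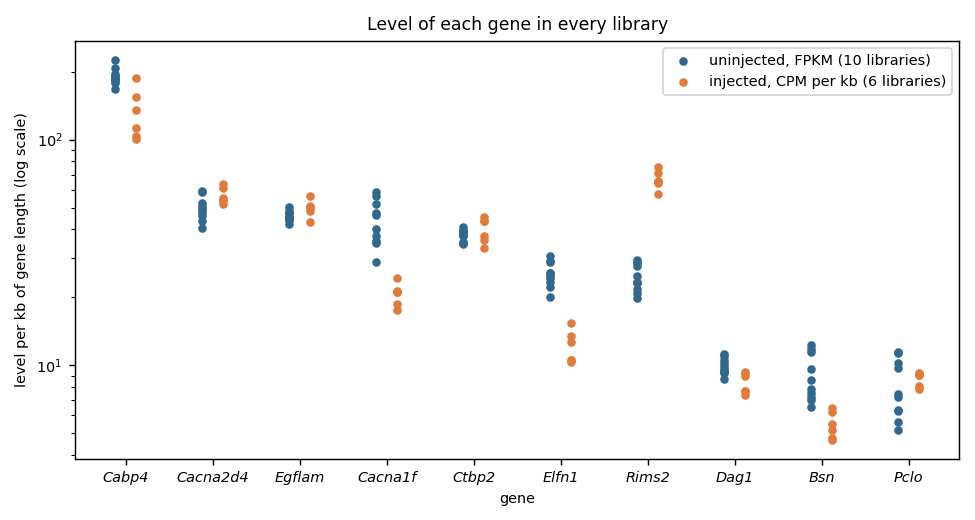
Level of each gene per kilobase of gene length in every library (log axis), as FPKM in 10 uninjected and as CPM per kilobase in 6 injected retinas, both with the gene lengths of the FPKM table. Rims2 lies at 24.8 FPKM in the uninjected and at 66.5 CPM per kilobase in the injected table, and the injected Cabp4 points (mean 132 CPM per kilobase) would average 53.8 with the GENCODE M21 length.

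Reads were ample for every gene: between 815 (Dag1) and 14493 (Cacna2d4) reads per library in the uninjected table, recovered from the FPKM values, and between 1006 (Elfn1) and 19806 (Rims2) counts per library in the injected table. Library totals were 12810600 to 30519400 recovered reads and 22066700 to 25609200 counts. The retina label fitted the markers: the summed level of 10 rod genes was 14001 to 15374 FPKM in WT retinas at 18 months, 14088 to 15339 FPKM in mutants and 13369 to 14472 FPKM in WT retinas at 12 months, with no rod marker at 0. In bulk tissue, fewer cells of a type and less RNA per cell cannot be told apart.

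Ctbp2 (ENSMUSG00000030970, chromosome 7, 132987563 to 133124354 in mm10, minus strand) needs its sequence shown first, since 1 gene name covers 2 proteins. A start inside the gene gives RIBEYE, the ribbon's own protein, with an annotated coding length of 988 codons, and starts farther out give the transcriptional co-repressor CtBP2, of 445 codons. The deposited values are per gene, so the 2 products cannot be told apart in what follows. The 250 bases before the RIBEYE start that RefSeq gives (GRCm38.p6) are printed 5′ to 3′ along the gene, and capitals mark GGATTA, the reverse complement of TAATCC, the core that the photoreceptor factor CRX binds.

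RIBEYE start, chr7:133015248-133015497, minus strand: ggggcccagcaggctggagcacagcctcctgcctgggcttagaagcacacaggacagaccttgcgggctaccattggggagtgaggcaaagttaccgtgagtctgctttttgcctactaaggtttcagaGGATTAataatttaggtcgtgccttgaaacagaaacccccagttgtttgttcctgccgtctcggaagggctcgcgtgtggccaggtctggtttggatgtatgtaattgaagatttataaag

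The capitals lie 121 bases before the start, and the window is 51.6% G and C. RefSeq's other Ctbp2 window is not printed, because no transcript of GENCODE M21 starts there and 16 of the 20 annotated Ctbp2 transcripts start farther out. Of the 10 genes, 7 had RefSeq windows, 10 windows in all. The Egflam windows overlap each other, as do the Dag1 windows, so not all 10 are separate. TAATCC or GGATTA was found in 1 of these 10, against 2054 of 32851 windows of the same length in the genome (6.25%). Bsn, Pclo and Dag1 are printed too, because Bsn and Pclo moved together across libraries and Dag1, given at the outer of its 2 starts, had the smallest p of the 10 genes after 24:5.

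Bsn start, chr9:108190384-108190633, minus strand: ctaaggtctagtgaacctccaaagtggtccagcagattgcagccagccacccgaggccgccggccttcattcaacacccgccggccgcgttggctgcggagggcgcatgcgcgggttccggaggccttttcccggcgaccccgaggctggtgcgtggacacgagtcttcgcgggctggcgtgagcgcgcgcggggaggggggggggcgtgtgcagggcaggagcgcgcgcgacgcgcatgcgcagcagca
Pclo start, chr5:14514668-14514917, plus strand: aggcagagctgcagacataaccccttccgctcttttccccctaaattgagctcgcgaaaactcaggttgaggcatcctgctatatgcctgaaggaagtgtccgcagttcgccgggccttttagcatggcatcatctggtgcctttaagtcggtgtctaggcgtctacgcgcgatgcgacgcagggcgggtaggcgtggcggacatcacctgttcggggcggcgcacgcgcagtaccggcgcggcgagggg
Dag1 start, chr9:108263959-108264208, minus strand: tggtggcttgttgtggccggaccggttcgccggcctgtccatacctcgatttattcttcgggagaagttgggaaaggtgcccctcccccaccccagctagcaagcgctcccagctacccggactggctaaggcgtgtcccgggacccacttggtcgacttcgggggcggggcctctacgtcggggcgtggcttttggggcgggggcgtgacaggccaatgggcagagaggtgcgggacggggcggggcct

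These 3 windows hold neither TAATCC nor GGATTA and are 71.6% (Bsn), 61.2% (Pclo) and 67.6% (Dag1) G and C. A match or its absence describes letters only and says nothing of binding.

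Ribbon and active zone genes came first in the uninjected comparison. Bsn (ENSMUSG00000032589, chromosome 9, 108096022 to 108190384, minus strand), the gene of bassoon, was at 7.23, 11.4, 9.67 and 8.64 FPKM in WT retinas at 18 months, at 11.9, 7.01 and 7.58 FPKM in mutants and at 7.85, 12.3 and 6.53 FPKM in WT retinas at 12 months. Pclo (ENSMUSG00000061601, chromosome 5, 14514918 to 14863459, plus strand), the gene of the related scaffold piccolo, was at 5.63, 10.3, 9.69 and 7.25 FPKM in WT retinas at 18 months, at 11.3, 6.25 and 6.33 FPKM in mutants and at 7.49, 11.5 and 5.15 FPKM in WT retinas at 12 months. In both genes every group held a library at or above 10 FPKM beside one below 8 FPKM, so the spread within a group was larger than any difference between groups. Ctbp2 was far tighter, at 34.5, 39.03, 41.1 and 39.4 FPKM in WT retinas at 18 months, at 39.1, 37.4 and 37.8 FPKM in mutants and at 35.1, 39.9 and 34.9 FPKM in WT retinas at 12 months. Rims2 (ENSMUSG00000037386, chromosome 15, 39198261 to 39684372, plus strand), which encodes the release-site protein RIM2, was at 21.0, 29.3, 27.4 and 24.8 FPKM in WT retinas at 18 months, at 28.6, 23.1 and 21.8 FPKM in mutants and at 23.3, 28.3 and 19.9 FPKM in WT retinas at 12 months. The groups overlapped in all 4 genes.

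Among the channel genes, Cacna1f (ENSMUSG00000031142, chromosome X, 7607083 to 7635196, plus strand), the pore-forming subunit of the terminal's L-type channel, spread most. It was at 37.4, 46.5, 47.3 and 35.6 FPKM in WT retinas at 18 months, at 56.1, 34.9 and 40.3 FPKM in mutants and at 51.8, 58.6 and 28.7 FPKM in WT retinas at 12 months. The highest and the lowest of these 10 values were both WT libraries at 12 months. Cabp4 (ENSMUSG00000024842, chromosome 19, 4135425 to 4139609, minus strand), whose product binds calcium and shifts the channel's opening to more negative potentials, was at 226, 185, 182 and 191 FPKM in WT retinas at 18 months, at 167, 188 and 195 FPKM in mutants and at 177, 185 and 207 FPKM in WT retinas at 12 months. Cacna2d4 (ENSMUSG00000041460, chromosome 6, 119236526 to 119352407, plus strand), the channel's auxiliary subunit, was at 43.6, 52.5, 49.5 and 46.0 FPKM in WT retinas at 18 months, at 59.0, 47.2 and 50.8 FPKM in mutants and at 48.7, 58.6 and 40.6 FPKM in WT retinas at 12 months. All 3 channel genes overlapped between the groups.

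Of the genes that bridge the cleft, Egflam (ENSMUSG00000042961, chromosome 15, 7206120 to 7398395, minus strand), which encodes pikachurin, varied least of all 10, with a coefficient of variation of 5.00% over the 10 libraries against 29.7% for Pclo. It was at 45.3, 45.0, 44.0 and 42.5 FPKM in WT retinas at 18 months, at 45.3, 48.1 and 50.2 FPKM in mutants and at 47.5, 44.4 and 47.5 FPKM in WT retinas at 12 months. Dag1 (ENSMUSG00000039952, chromosome 9, 108204634 to 108263958, minus strand), the gene of dystroglycan, was at 8.71, 11.3, 10.6 and 9.29 FPKM in WT retinas at 18 months, at 9.94, 9.62 and 9.37 FPKM in mutants and at 10.2, 11.02 and 9.40 FPKM in WT retinas at 12 months. Elfn1 (ENSMUSG00000048988, chromosome 5, 139907943 to 139974722, plus strand), whose product recruits the bipolar cell's glutamate receptor, was at 25.5, 30.6, 28.7 and 25.5 FPKM in WT retinas at 18 months, at 24.5, 22.3 and 25.0 FPKM in mutants and at 23.4, 29.1 and 20.1 FPKM in WT retinas at 12 months. All 4 Elfn1 values at 18 months lay above all 3 mutant values, while WT retinas at 12 months spanned both.

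**Figure D2:**
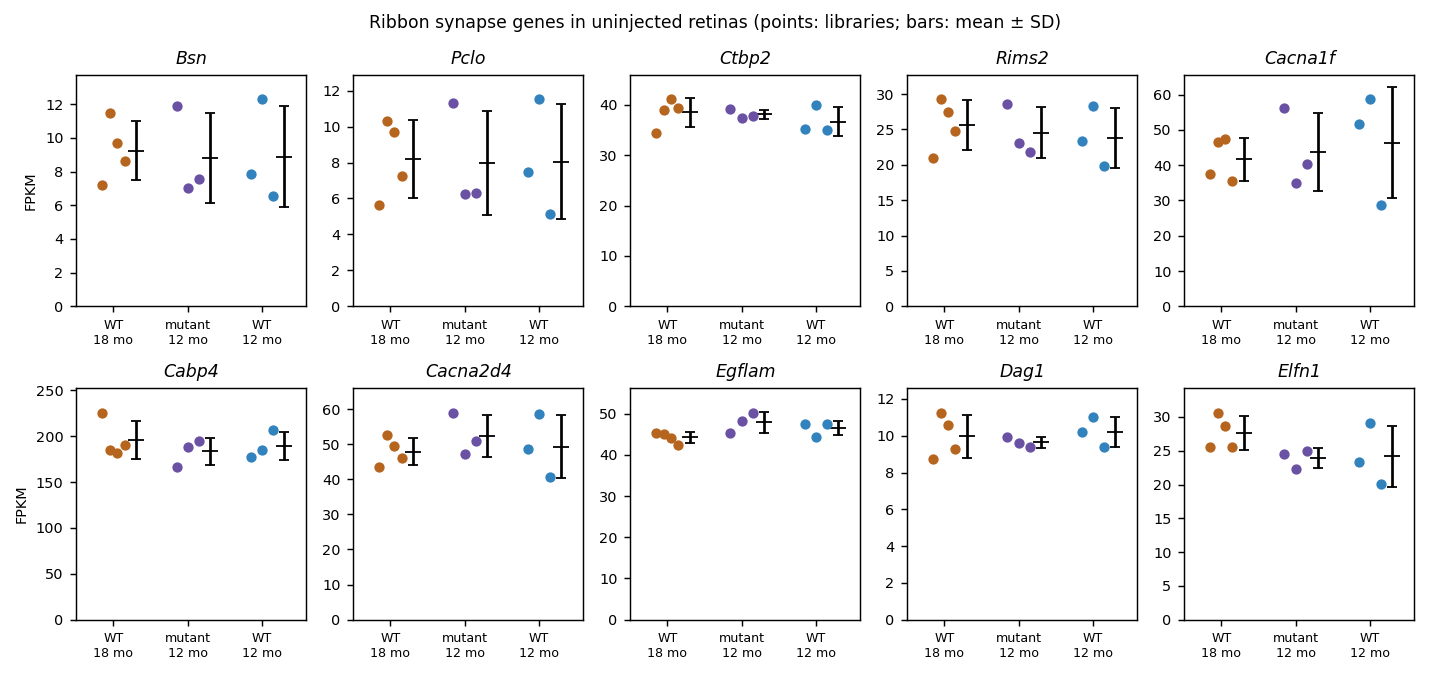
FPKM of each gene in every uninjected library (points) with the mean and SD of WT retinas at 18 months (n = 4), mutants at 12 months (n = 3) and WT retinas at 12 months (n = 3), each axis from 0. Groups overlap in all panels except Elfn1 between WT retinas at 18 months (25.5 to 30.6 FPKM) and mutants (22.3 to 25.0 FPKM), and the Bsn, Pclo and Cacna1f points spread widely within each group.

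The age comparison set WT retinas at 18 months against WT retinas at 12 months. By limma, a moderated test on log2(FPKM + 1) over 13786 genes with Benjamini-Hochberg adjustment, 0 of the 10 genes passed 0.05, as did 0 of all genes (0%). At an unadjusted p under 0.05 stood 0 of 10 genes, against 3.65% of all genes, and groups without overlap were 0 of 10 against 4.17%. On the recovered reads, edgeR called 0 of 10 genes (1 of all genes) and DESeq2 0 of 10 (13 of all genes). Elfn1 had the largest difference, 27.6 ± 2.51 FPKM at 18 months and 24.2 ± 4.52 FPKM at 12 months (log2 difference 0.19, 95% interval -0.07 to 0.46, unadjusted p = 0.130, limma adjusted p = 0.9999). Pclo had the widest interval, -0.57 to 0.68, so an age difference of that size in it could not be seen with these libraries. The interval of Egflam was -0.21 to 0.07 and that of Ctbp2 -0.11 to 0.24. The log2 difference was above 0 in 6 of the 10 genes, against 49.4% of all genes, and its median was 0.05 (all genes: 0.00).

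The genotype comparison set the mutants against WT retinas at 12 months, the same 3 WT libraries that serve the age comparison. By limma 0 of the 10 genes passed, and 0 of all genes (0%). An unadjusted p under 0.05 was seen for 0 of 10 genes, against 2.19% of all genes, and edgeR and DESeq2 on recovered reads called 0 of 10 (0 of all genes each). No gene was without overlap between the groups, against 5.97% of all genes. The largest log2 difference was that of Cacna2d4, at 52.3 ± 6.05 FPKM in mutants, against 49.3 ± 8.997 FPKM in WT retinas (0.09, interval -0.21 to 0.40, unadjusted p = 0.508, limma adjusted p = 0.9998). Bsn at 8.82 ± 2.66 FPKM in mutants, against 8.89 ± 3.01 FPKM in WT retinas had an interval of -0.54 to 0.54. The median log2 difference of the 10 genes was 0.00 (all genes: -0.01), with 5 above 0, against 47.7% of all genes. With library quality weights, limma called Cacna1f alone among the 10 (log2 -0.44, adjusted p = 0.0474), in a fit that called 2598 genes and in which 1 library, the 12-month WT replicate 1, had a weight of 5.76.

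WT retinas at 18 months were also set against the mutants at 12 months, which differ in both age and genotype. By limma 0 of the 10 genes passed, and 0 of all genes (0%), while DESeq2 on recovered reads called 0 of 10 (11 of all genes) and edgeR 0 of 10 (0 of all genes). An unadjusted p under 0.05 was seen for 0 of 10 genes, against 2.14% of all genes. Elfn1 was the 1 gene of 10 without overlap, against 4.47% of all genes in either direction and 2.1% higher, at 27.6 ± 2.51 FPKM in WT retinas at 18 months and 23.9 ± 1.44 FPKM in mutants (log2 0.20, interval -0.07 to 0.46, unadjusted p = 0.125, limma adjusted p = 0.99999). Egflam had the smallest p (log2 -0.11, interval -0.25 to 0.03, unadjusted p = 0.111). The median log2 difference was 0.05 (all genes: 0.01), with 7 of 10 genes above 0, against 53.2% of all genes.

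**Figure D3:**
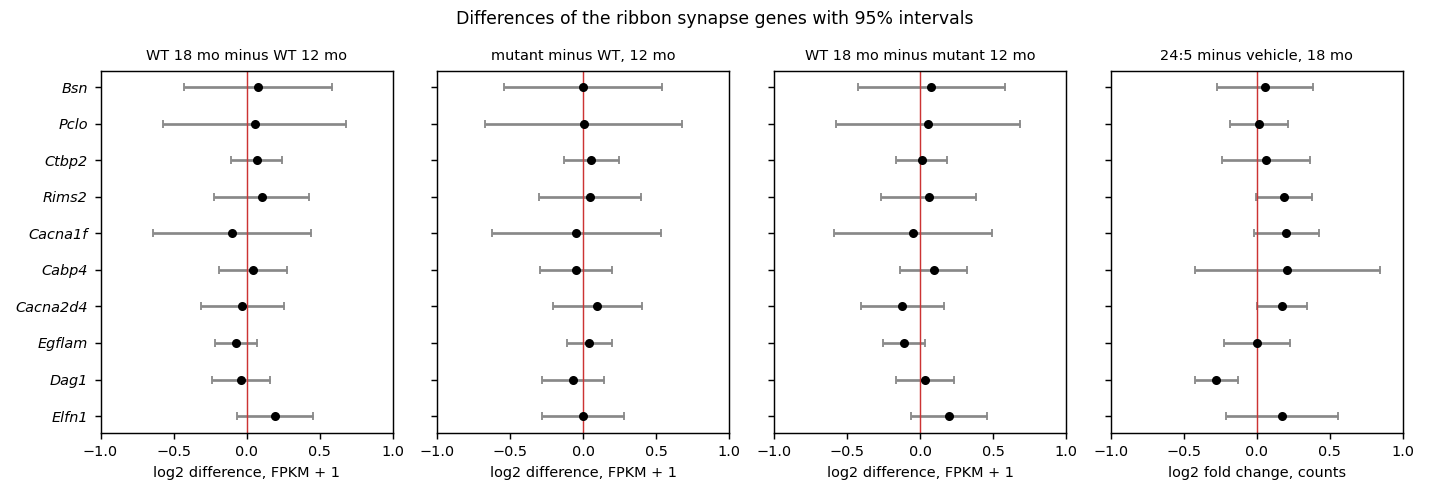
Log2 difference of each gene (points) with its 95% interval (bars) in the 4 comparisons, on log2(FPKM + 1) for the 3 uninjected comparisons and from counts for 24:5 against vehicle. All intervals of the uninjected comparisons include 0, that of Pclo being the widest. After 24:5 the interval of Dag1 (-0.42 to -0.13) lies wholly below 0 and that of Cacna2d4 (0.0004 to 0.34) just above 0.

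The supplementation comparison set 24:5 against vehicle in injected eyes of 18-month WT mice. By edgeR's quasi-likelihood test over 17466 genes, 0 of the 10 genes passed an adjusted p of 0.05, against 2 of all genes (0.0115%), and DESeq2 called 0 of 10 (246 of all genes). At an unadjusted p under 0.05 stood 2 of the 10 genes, against 6.61% of all genes: Cacna2d4 was higher (all genes: 1.44%) and Dag1 lower (all genes: 5.16%). Groups without overlap were found in 3 of 10 genes (Rims2 and Cacna2d4 higher, Dag1 lower), against 11.6% of all genes, of which 4.82% higher and 6.77% lower. None of these 3 passed after adjustment over all genes by edgeR or DESeq2.

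Dag1, the dystroglycan gene, was at 47.2, 48.8 and 48.7 CPM after 24:5, against 59.6, 58.7 and 57.1 CPM after vehicle. All 3 libraries given 24:5 lay below all 3 vehicle libraries, and the values within each group lay close together. The log2 fold change was -0.28 (SE 0.0629, interval -0.42 to -0.13, unadjusted p = 0.00235, edgeR adjusted p = 0.278), the 147th smallest p of 17466 genes. It kept its sign under all 15 alternative settings, between -0.45 and -0.27, and passed under 1 of them, with the leading component of the residuals as a term (edgeR adjusted p = 0.0326, in a fit that called 399 genes). Among markers of non-neuronal cells, 8 microglial genes summed to 71.1 to 134 CPM after 24:5 and 148 to 245 CPM after vehicle, without overlap. Of these, 0 of 8 were at 0 CPM. For 6 endothelial genes the sum was 224 to 299 CPM after 24:5 and 298 to 368 CPM after vehicle, with a slight overlap. The 8 lens genes summed to 54.5 to 650.4 CPM after 24:5 and 124 to 1779 CPM after vehicle, with overlap. Their sum was at most 1.23 FPKM in any uninjected library, but FPKM and CPM are not on 1 scale. Sums also overlapped for 6 Mueller glia genes (2894 to 3692 CPM after 24:5, 2962 to 3784 CPM after vehicle). The same held for 7 pigment epithelium genes (173 to 318 against 94.2 to 345 CPM) and 8 gliosis genes (281 to 1328 against 868 to 1495 CPM). The part of these cells in the Dag1 values was not tested.

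In the ribbon and active zone group after injection, Rims2 was at 788, 683 and 736 CPM after 24:5, against 667, 677 and 596 CPM after vehicle. The groups were without overlap by a margin of a few CPM (log2 0.19, interval -0.0038 to 0.37, unadjusted p = 0.0537, edgeR adjusted p = 0.772). Bsn was at 74.8, 88.0 and 104 CPM after 24:5, against 75.7, 82.2 and 98.6 CPM after vehicle. Pclo was at 182, 207 and 205 CPM after 24:5, against 177, 207 and 204 CPM after vehicle, an interval of -0.19 to 0.22. Bsn and Pclo were thus spread alike in both groups. Ctbp2 was at 206, 282 and 271 CPM after 24:5, against 224, 234 and 270.3 CPM after vehicle, with full overlap (interval -0.24 to 0.36).

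All 3 channel genes had higher means with 24:5, and none passed. Cacna2d4 was at 522, 605 and 579 CPM after 24:5, against 513, 513 and 489.8 CPM after vehicle, without overlap. Its log2 fold change was 0.17 (interval 0.0004 to 0.34, unadjusted p = 0.0496, edgeR adjusted p = 0.755). Cacna1f was at 192, 220.4 and 191 CPM after 24:5, against 171, 195 and 160.0 CPM after vehicle (log2 0.20, interval -0.02 to 0.42, edgeR adjusted p = 0.822), and 1 vehicle library reached into the range of 24:5. Cabp4 was the most variable of the 10 genes in the injected table, at 267, 148 and 193 CPM after 24:5, against 222, 162 and 143 CPM after vehicle, a coefficient of variation of 25.6% against 8.60% over the uninjected libraries. Its interval of -0.42 to 0.84 is the widest of the 10 in that comparison.

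Egflam was at 264, 343 and 308 CPM after 24:5, against 296, 306 and 312 CPM after vehicle. The means were 305 CPM in both groups (log2 0.00, interval -0.22 to 0.23), although its partner Dag1 had no overlap between the groups; the difference between the 2 genes was not tested. Elfn1 was at 43.9, 53.0 and 64.5 CPM after 24:5, against 43.9, 43.0 and 56.4 CPM after vehicle, with overlap (log2 0.17, interval -0.21 to 0.55).

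**Figure D4:**
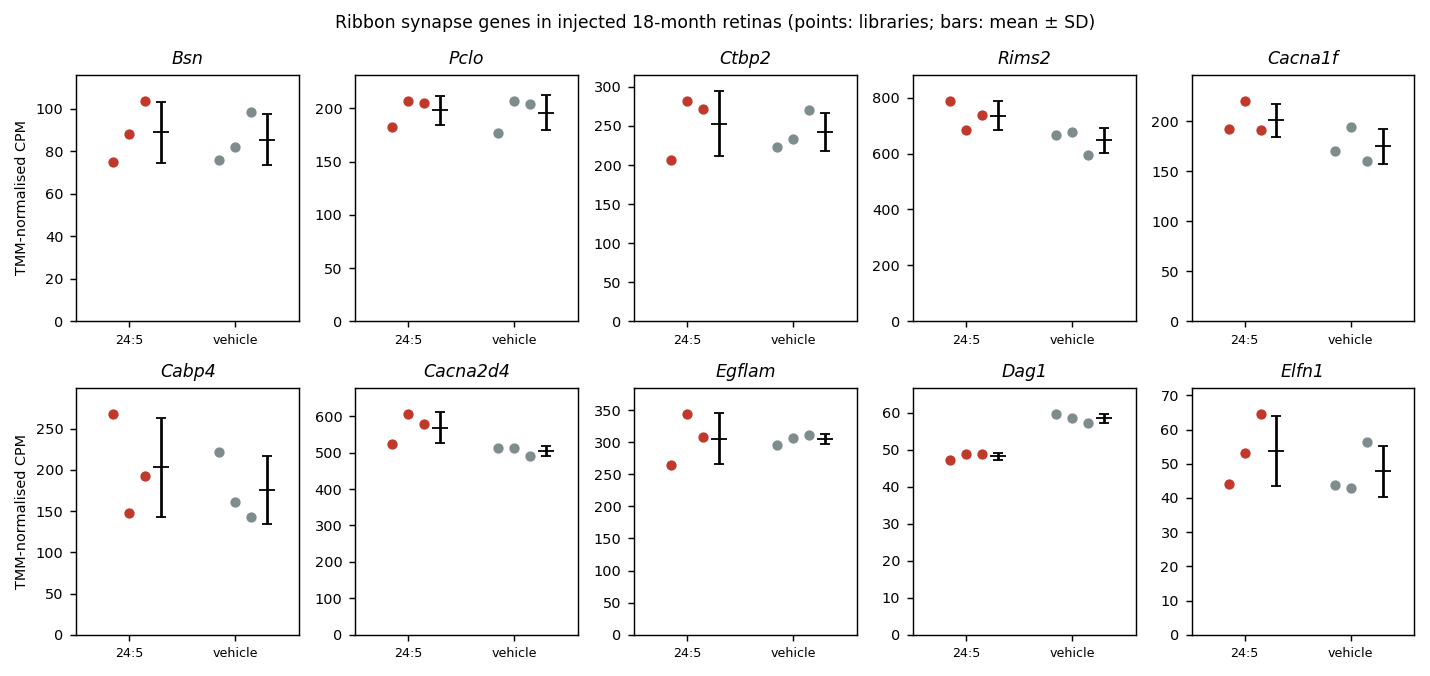
TMM-normalised CPM of each gene in every injected library (points) with the mean and SD of 24:5 and of vehicle (n = 3 each), each axis from 0. The 3 Dag1 values with 24:5 (47.2 to 48.8 CPM) lie below the 3 with vehicle (57.1 to 59.6 CPM), Rims2 and Cacna2d4 lie above without overlap, and the other 7 genes overlap.

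Across the 10 genes the median log2 fold change with 24:5 was 0.12 (all genes: 0.00), and 9 of 10 were above 0, against 50.8% of all genes. The rod markers had a larger median than these genes, 0.20 with 9 of 10 above 0, and their sum was 50236 to 53264 CPM after 24:5 and 42372 to 49491 CPM after vehicle, without overlap. Medians were also larger for pigment epithelium (0.24), ganglion cell (0.17) and cone markers (0.13). The ganglion cell sum was 930 to 1016 CPM after 24:5 and 815 to 899 CPM after vehicle, without overlap. Medians were smaller for bipolar (0.00) and amacrine and horizontal cell markers (0.04). They were below 0 for Mueller glia, microglia, endothelial, lens and gliosis markers. With libraries scaled to equal rod marker levels, the median of all genes shifted to -0.18 and that of the 10 genes to -0.068, and the sign turned in Bsn, Pclo, Ctbp2, Cacna2d4, Egflam and Elfn1. This scaling moves every gene by nearly the same amount, so it could not change where the 10 genes lie relative to all genes. The part of the rod share in the median of the 10 genes was not tested.

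Other genes of the terminal and its partners were read from 6 lists. No gene of any list passed in any comparison. With 24:5, the active zone partners had a median log2 fold change of 0.16 with 8 of 9 above 0. Erc2, an active zone scaffold, was at 63.5 ± 1.79 CPM after 24:5 and 55.1 ± 1.88 CPM after vehicle (unadjusted p = 0.0139, edgeR adjusted p = 0.494), and Rimbp2, which links RIM to the channels, at 24.0 ± 1.81 CPM after 24:5 and 20.1 ± 2.23 CPM after vehicle. Vesicle and fusion genes had a median of 0.09 with 11 of 13 above 0, led by Stx3, the syntaxin of ribbon terminals, at 716 ± 10.4 CPM after 24:5 and 652 ± 12.0 CPM after vehicle (unadjusted p = 0.0480), and then Snap25 (log2 0.15). Genes of conventional synapses had a median of 0.10 with 7 of 8 above 0, where the complexin genes Cplx2 (log2 0.23, unadjusted p = 0.0102) and Cplx1 (log2 0.21, unadjusted p = 0.0241) had the smallest p.

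Partners on the bipolar dendrite had a median of 0.04 with 24:5, with Rgs7, a regulator of the receptor's G protein, at log2 0.20 (unadjusted p = 0.0354) and the cation channel gene Trpm1 at log2 -0.15. Calcium handling genes of the terminal had a median of 0.04, and their smallest p values belonged to Cabp1 (log2 0.12) and Cacnb2 (log2 0.05). The dystrophin complex and the enzymes that glycosylate dystroglycan, 19 of 21 listed genes measured, had a median of 0.02 with 11 of 19 above 0. Sgcb, a sarcoglycan gene, was at 45.2 ± 6.63 CPM after 24:5 and 64.9 ± 12.6 CPM after vehicle (log2 -0.52, unadjusted p = 0.0146, edgeR adjusted p = 0.497), and Dmd, the dystrophin gene, at 526 ± 25.7 CPM after 24:5 and 458 ± 36.9 CPM after vehicle (log2 0.20, unadjusted p = 0.0378, edgeR adjusted p = 0.707). Dag1 and Sgcb had lower means with 24:5, and Dmd, which encodes their intracellular anchor, had a higher one.

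With age, the vesicle and fusion genes had the largest median among the ribbon terminal's own lists, 0.08 with 11 of 13 above 0. Slc17a7, the vesicular glutamate transporter of photoreceptors and bipolar cells, was at 307 ± 3.91 FPKM in WT retinas at 18 months and 266 ± 6.40 FPKM at 12 months, without overlap (log2 0.21, unadjusted p = 0.0124, limma adjusted p = 0.9999). Nyx, which encodes the bipolar surface protein nyctalopin, was at 6.42 ± 0.504 FPKM at 18 months and 5.16 ± 0.348 FPKM at 12 months, without overlap (log2 0.27, unadjusted p = 0.0102, limma adjusted p = 0.9999). Slc17a7 was also at 295 ± 6.89 FPKM in the mutants, above the 3 WT libraries at 12 months (log2 0.15, unadjusted p = 0.0733), a result that shares its WT libraries with the age result. Other age genes with small p in their lists were Nsf (log2 0.15), Rgs7 (0.16), Unc119 (0.16), Unc13a (-0.12), Cabp2 (0.33), Cacna1d (-0.08), Pomgnt1 (0.10), Sntb1 (-0.13) and Slc32a1 (0.20), none with an unadjusted p under 0.05.

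In the mutants, Rgs7 was at 7.90 ± 0.391 FPKM against 6.56 ± 0.836 FPKM in WT retinas at 12 months (log2 0.24, unadjusted p = 0.0210, limma adjusted p = 0.9998). The conventional synapse genes had the largest median of the 6 lists, 0.17 with 7 of 8 above 0, and in it Syn1, a synapsin gene, had a log2 difference of 0.25 (unadjusted p = 0.0414). Tulp1, a photoreceptor gene needed for ribbon synapses, was at 163 ± 2.83 FPKM in mutants, against 172 ± 3.69 FPKM in WT retinas, without overlap (log2 -0.08, unadjusted p = 0.280). The remaining genes with the smallest p in their lists were Ppfia3 (log2 0.06), Nsf (0.15), Trpm1 (0.21), Atp2b1 (-0.07), Cacnb2 (-0.08), Utrn (0.11) and Sgcb (-0.08). Between WT retinas at 18 months and mutants, Pomgnt1, which extends the sugar chains of dystroglycan, was at 14.4 ± 0.525 FPKM in WT retinas at 18 months and 12.8 ± 0.449 FPKM in mutants, without overlap (log2 0.16, unadjusted p = 0.0209). There, Ppfia3 (log2 -0.09), Unc13a (-0.19), Nyx (0.16), Rgs7 (-0.08), Syn2 (-0.16), Cplx1 (-0.19), Sntb1 (-0.11), Cabp2 (0.14), Atp2b1 (0.04), Slc17a7 (0.06) and Cplx3 (0.11) had no unadjusted p under 0.05.

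The 10 genes varied together across the uninjected libraries in part. Of 45 pairs, 29 had a positive Pearson r over the 10 libraries, and the median r of all 45 was 0.65. The highest r was that of Bsn with Pclo (0.98) and the lowest that of Pclo with Cabp4 (-0.75). Cabp4, the shortest of the genes, and Egflam, the steadiest, ran the other way: r with Bsn was -0.64 for Cabp4 and -0.55 for Egflam. Over the 6 injected libraries 23 of 45 pairs were positive, and the median r of all 45 was 0.11. These r describe libraries that share depth and composition, and the groups are pooled in them.

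Within each group of uninjected retinas, the libraries high in Pclo and Cacna1f were those high in Malat1, a long nuclear RNA. Malat1 was at 229 to 377 FPKM in 5 libraries (WT replicates 2 and 3 at 18 months, mutant replicate 1, and WT replicates 1 and 2 at 12 months) and at 85.7 to 149.97 FPKM in the other 5. Pclo (7.49 to 11.5 against 5.15 to 7.25 FPKM), Cacna1f (46.5 to 58.6 against 28.7 to 40.3 FPKM) and Dag1 (9.94 to 11.3 against 8.71 to 9.62 FPKM) were higher in all 5 of the first than in all 5 of the second, as were 12.6% of all genes. Cabp4 was lower in all 5 (167 to 185 against 188 to 226 FPKM), as were 9.86% of all genes, and the other 6 genes overlapped. In the injected table, Irf9, an interferon response gene, was at 158 to 228 CPM in 3 libraries (24:5 replicates 2 and 3 and vehicle replicate 3) and at 21.95 to 61.4 CPM in the other 3. Bsn (88.0 to 104 against 74.8 to 82.2 CPM), Ctbp2 (270.3 to 282 against 206 to 234 CPM), Egflam (308 to 343 against 264 to 306 CPM) and Elfn1 (53.0 to 64.5 against 43.0 to 43.9 CPM) were higher in all 3 of the first than in the other 3, as were 16.2% of all genes, and 0 of 10 genes were lower, against 14.1% of all genes. Malat1 and Irf9 were chosen after their values were seen, these sets of libraries cut across the study's groups, and no test was made over them.

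**Figure D5:**
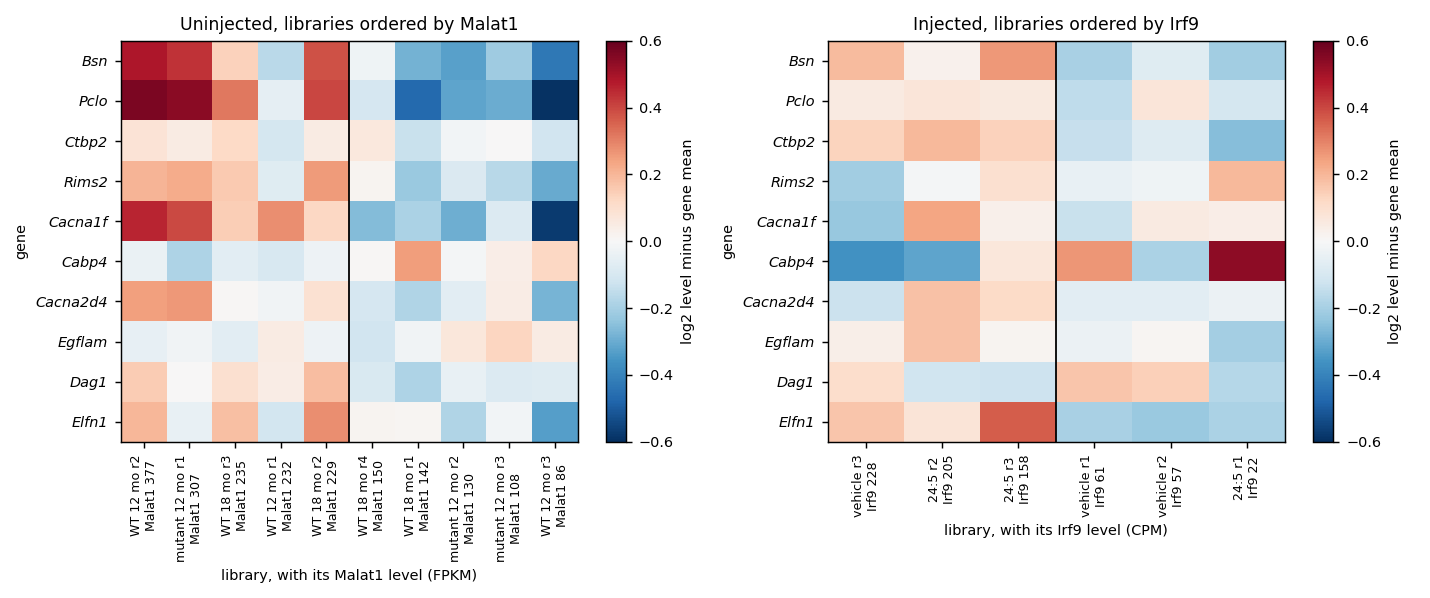
Level of each gene in every library as log2 minus the gene's mean, red high and blue low, with uninjected libraries ordered from the highest to the lowest Malat1 (FPKM) and injected libraries by Irf9 (CPM); a line parts the 5 highest from the other 5 and the 3 highest from the other 3. Pclo and Cacna1f are higher on the left of the Malat1 line (Pclo 7.49 to 11.5 against 5.15 to 7.25 FPKM) in libraries of every group, and Elfn1, Bsn and Ctbp2 on the left of the Irf9 line.

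Apart from the 10 genes themselves, the genes whose log2 level was most like their mean profile over the uninjected libraries were Arid1a, Tsc2, Ep300, Zfp236 and Aak1, each with r = 0.99 over 10 libraries. Among 4910 genes with a mean of at least 10 FPKM, 341 (6.95%) had an r above 0.9. Over the 6 injected libraries the most alike were Immt, Cyp51, Scaf4, Ttc39c and Gm21092, each with r = 0.99, and 237 of 10332 genes (2.29%) had an r above 0.9. No gene appeared in both sets of 5.

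Some of the genes share bases with neighbours. The largest share of a gene's exons is that of Ctbp2, 314 bases or 5.05%, with Fgfr2 (0.241 FPKM). Both lie on the same strand, so strand cannot part their reads there. Gm26954 (ENSMUSG00000098233, chromosome 5, 14696985 to 14723664), annotated on the strand opposite to Pclo, shares 496 exon bases with it, 2.21% of the Pclo exons. Its mean was 51.8 FPKM in the uninjected libraries, 4.74 to 8.56 times the FPKM of Pclo in the same library. After 24:5 it was at 130.4, 257 and 172 CPM, and after vehicle at 232, 181 and 197 CPM, with overlap (log2 -0.12, edgeR adjusted p = 0.997). Its r with Pclo was 0.71 over the 10 uninjected libraries and 0.21 over the 6 injected ones. In GENCODE M21, Cabp4 shares 131 exon bases with Gpr152 on the opposite strand (41.9 FPKM), and Egflam 198 with Gm16029 (0.642 FPKM). With the shorter span given with the FPKM values, Cabp4 ends at 4139609, before the GENCODE M21 start of Gpr152 at 4139787. The Cabp4 overlap thus depends on the annotation. The libraries mark the strand, but whether the counting used it is not given in the sources used here. Where the annotation used has bases shared on opposite strands, reads over them therefore cannot be assigned with certainty.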

How the data were processed

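RNA from whole retinas was poly(A)-selected and made into strand-marking (dUTP) libraries, per the labels' protocols. The tools were featureCounts 2.0.6, HISAT2 2.2.1 and DESeq2 1.42.0, on mm10, per the submitters' processing notes, in no stated role or order. Annotation release and strand setting: not given in the sources used here. The authors deposited FPKM values for the uninjected libraries and raw read counts for the injected ones. FPKM times gene length gave whole reads (within 0.02) for 100% of values above 0, used in alternatives.

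FPKM was tested with limma 3.58.1 in R 4.3.3 (trend, robust) on log2(FPKM + 1) for genes with a mean of at least 1 FPKM, 3 groups in 1 fit; this scale understates changes of low genes. For the counts, edgeR 4.0.16 was used (TMM, filterByExpr, robust quasi-likelihood test), and DESeq2 1.42.0 was an alternative. All tests were two-sided; p was adjusted over all genes (Benjamini-Hochberg) with a threshold of 0.05, and the scripts were tested on simulated data. Chi-square per degree of freedom between replicates was 3.06 to 42.7, so none were duplicates. Replicate numbers were not shown to pair the libraries, and which injected retinas share an animal is not given in the sources used here; the reported fits have no block.

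The genes and lists were chosen with earlier results of these data known, so their counts and medians have no test of their own. Of the lists, the 2 genes with the smallest p per comparison are named, and the 5 genes most alike per table; 1 gene that this takes is not reported here. The RefSeq promoter table of GRCm38.p6 was matched by symbol; only the 250 bases before a start were used. RefSeq protein sequences were not used here.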

Additional observations from a re-analysis of the deposited data

How the results depend on the processing

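The count of the 10 genes called stayed at 0 under all alternatives of the age comparison and of WT at 18 months against mutants. It was 1 under 1 alternative each of the other comparisons: for genotype with library quality weights (Cacna1f), and for 24:5 against vehicle with the leading residual component as a term (Dag1). The counts of all genes called moved more: for age 0 by limma, 1246 with quality weights, 4 without a filter, 13 by DESeq2; for 24:5 against vehicle 2 by edgeR, 246 by DESeq2, 11 by limma-voom with quality weights, 85 without a filter and 190 with rod scaling. The causes of these moves were not tested. With libraries left out 1 at a time, 0 of the 10 genes were called in every comparison.

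No log2 difference of a gene turned its sign for age, apart from left-out libraries. For genotype, signs turned for Bsn at a pseudocount of 0.1 (0.00055) and with centring on the median of all genes (0.018, with Elfn1 at 0.016). Quality weights turned Pclo (-0.18), Rims2 (-0.016), Cabp4 (0.072) and Cacna2d4 (-0.0044), and rod scaling turned Pclo (-0.046), Rims2 (-0.0027) and Egflam (-0.0065). On recovered reads Pclo was at -0.0066 by edgeR and -0.0059 by DESeq2. For WT at 18 months against mutants, Cacna1f turned with quality weights (0.15). After 24:5, rod scaling turned the median (-0.068) and Bsn (-0.13), Pclo (-0.16), Ctbp2 (-0.12), Cacna2d4 (-0.0016), Egflam (-0.17) and Elfn1 (-0.017). Scaling by library totals alone turned Pclo (-0.020) and Egflam (-0.032). Egflam was at -0.0088 with a mean of at least 5 CPM and at -0.0033 with the residual component, and Cabp4 at -0.024 by limma-voom with quality weights. The cause of each turn was not tested.

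Deviations of libraries with the same replicate number correlated at -0.39 to 0.42 (age), -0.42 to 0.51 (genotype), -0.47 to -0.21 (WT at 18 months against mutants) and -0.19 to 0.41 (24:5 against vehicle), so the numbers are not shown to pair the libraries. The vehicle went into the other eye of the same mice, per the labels' protocols, and which libraries share a mouse is not given in the sources used here. With a replicate block, 0 of the 10 genes were called in any comparison, 88 genes in all were called for 24:5 against vehicle (2 without it), the adjusted p of Dag1 was 0.159 by edgeR, Egflam turned to -0.0059 there, and Cacna1f turned to 0.020 for WT at 18 months against mutants.

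Leaving out 1 library at a time, the median log2 difference ran over -0.072 to 0.12 (age), -0.098 to 0.14 (genotype), -0.027 to 0.098 (WT at 18 months against mutants) and 0.016 to 0.14 (24:5 against vehicle). For age, single genes whose sign turned had ranges of Bsn -0.098 to 0.31, Pclo -0.19 to 0.32, Rims2 -0.014 to 0.23, Cacna1f -0.40 to 0.099, Cabp4 -0.026 to 0.11, Cacna2d4 -0.16 to 0.10, Dag1 -0.092 to 0.02. For genotype they were Bsn -0.21 to 0.23, Pclo -0.25 to 0.27, Rims2 -0.073 to 0.17, Cacna1f -0.35 to 0.15, Cabp4 -0.096 to 0.018, Cacna2d4 -0.035 to 0.22, Elfn1 -0.12 to 0.13. For WT at 18 months against mutants they were Bsn -0.053 to 0.29, Pclo -0.077 to 0.31, Ctbp2 -0.019 to 0.063, Rims2 -0.017 to 0.17, Cacna1f -0.20 to 0.14, Dag1 -0.019 to 0.093. For 24:5 against vehicle they were Bsn -0.070 to 0.18, Pclo -0.060 to 0.066, Ctbp2 -0.026 to 0.18, Cabp4 -0.044 to 0.41, Egflam -0.094 to 0.092. With 3 or 4 libraries a group, differences of the size of these ranges could not be read. With the exon bases of GENCODE M21, a choice made after seeing the data, Cabp4 was at 53.8 CPM per kilobase in the injected table, against 132 with the FPKM table's length.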
